A study of Rattus norvegicus with 16 samples.

Results

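Immediate-early response genes are the genes that a cell transcribes first after a stimulus, and 10 of the 35849 genes in the deposited table are described here: Fos, Fosb, Jun, Junb, Egr1, Atf3, Ier2, Nr4a1, Dusp1 and Zfp36. They were taken by symbol, and each symbol stands on 1 row of the table. Their mRNA was measured by RNA sequencing in the kidneys of 16 male Sprague Dawley rats, 4 in each of 4 groups. In renal tissue of the diabetic nephropathy (DN) group, Nr4a1, Egr1, Fos and Jun were lower than in the normal group. At the threshold used, an adjusted p under 0.05 in edgeR's quasi-likelihood test, 10.8% of all genes tested were lower. Only the call of Nr4a1 stood whichever 1 rat was left out. No member differed between a sinomenine (SIN) group and the DN group at this threshold, and neither did any other gene tested. Other tests called genes there but 0 members. DESeq2 called 220 genes at 20 mg/kg and 424 at 40 mg/kg SIN, and edgeR's exact test 89 and 161.

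All rats were 6 to 8 weeks old at the start. The normal group received an injection of citrate buffer and a normal diet. The DN group received streptozotocin (STZ), a toxin of the insulin-producing beta cells, once at 45 mg/kg, together with a diet high in glucose and fat, and only rats whose blood glucose was above 16.7 mmol/L a week later were kept. Both SIN groups, SIN (20 mg/kg) and the higher dose SIN (40 mg/kg), had the same STZ, diet and selection and were given SIN, a plant alkaloid, by gavage every day for 8 weeks, while the DN group was given vehicle. STZ and the diet came together, so the normal and DN groups differ in both. Within a group the libraries carry consecutive serial numbers, so library batch cannot be told apart from the condition.

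Immediate-early genes need no new protein for their transcription. Kinase cascades that start at growth factor, stress or calcium signals act on factors already bound at their promoters, mainly serum response factor (SRF) with its ternary complex partners at CArG boxes and CREB at cAMP response elements (CRE), and their mRNAs are short-lived. Fos and Fosb pair with Jun and Junb to form the transcription factor AP-1. Egr1 is a zinc finger transcription factor, Atf3 a stress-induced member of the ATF/CREB family, Nr4a1 an orphan nuclear receptor and Ier2 a nuclear protein of the early response. Dusp1, a phosphatase of MAP kinases, and Zfp36, also called tristetraprolin, which binds AU-rich mRNAs and speeds their decay, are brakes on the response. In the kidney this set is known for its quick induction by ischaemia and by growth factors.

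Promoters of 4 members are shown because they hold a CArG box, a CRE or a site of the Egr family, the last being where Egr1 itself can bind. That of Ier2, which holds a CRE as well, is not printed. RefSeq promoters of the GRCr8 build, from 250 bases before to 50 bases after the start of the gene, matched 7 of the 10 members, and the others are Fos, Jun and Atf3. The estimated counts were made on Rnor_6.0, so these positions belong to the RefSeq build and not to the deposited table. Bases before the start are numbered backwards from -1, and capitals mark the motifs found. For Egr1 (chr18:26736828-26737127, plus strand) they are CArG boxes that begin at -105 and -83. For Nr4a1 (chr7:134259888-134260187, plus strand) they are a site of the Egr family, read on the minus strand, at -73. For Zfp36 (chr1:92799059-92799358, minus strand) they are an Egr site at -79 and a CArG box at -32. For Dusp1 (chr10:17184603-17184902, plus strand) they are a CRE at -124.
Egr1: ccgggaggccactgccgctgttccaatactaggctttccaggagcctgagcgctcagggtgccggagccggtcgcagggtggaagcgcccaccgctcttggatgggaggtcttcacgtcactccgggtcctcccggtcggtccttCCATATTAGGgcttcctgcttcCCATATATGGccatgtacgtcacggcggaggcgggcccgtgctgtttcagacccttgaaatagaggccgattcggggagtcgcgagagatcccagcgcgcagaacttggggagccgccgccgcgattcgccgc
Nr4a1: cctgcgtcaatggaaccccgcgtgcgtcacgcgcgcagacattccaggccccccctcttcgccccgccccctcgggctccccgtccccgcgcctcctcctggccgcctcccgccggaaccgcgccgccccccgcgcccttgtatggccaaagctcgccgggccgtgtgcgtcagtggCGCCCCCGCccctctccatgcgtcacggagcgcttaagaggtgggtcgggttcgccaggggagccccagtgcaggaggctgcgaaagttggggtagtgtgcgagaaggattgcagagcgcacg
Zfp36: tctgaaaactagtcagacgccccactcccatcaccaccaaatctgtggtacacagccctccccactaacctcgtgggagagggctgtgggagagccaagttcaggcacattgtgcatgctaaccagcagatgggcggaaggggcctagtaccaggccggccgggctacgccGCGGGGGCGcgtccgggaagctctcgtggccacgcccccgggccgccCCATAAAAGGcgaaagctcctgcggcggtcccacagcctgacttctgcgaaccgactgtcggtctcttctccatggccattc
Dusp1: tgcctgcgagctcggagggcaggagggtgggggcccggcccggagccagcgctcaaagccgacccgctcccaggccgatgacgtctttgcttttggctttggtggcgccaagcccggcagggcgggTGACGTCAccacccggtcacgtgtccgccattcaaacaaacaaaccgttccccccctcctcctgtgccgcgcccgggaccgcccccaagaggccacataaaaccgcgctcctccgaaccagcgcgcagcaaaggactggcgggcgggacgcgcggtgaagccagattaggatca
A CArG box, searched by its usual consensus on both strands, was found in 2 of the 7 promoters and in 1.64% of all 33469 promoters of the table. The CRE, TGACGTCA, stood in 2 of 7, Dusp1 and Ier2, and in 1.83% of all. The Egr site, GCGNGGGCG, stood in 2 of 7 and in 4.98% of all, and the TATA box, TATAAA, in 2 of 7, Fosb and Junb, and in 14.2% of all. The match in Fosb begins at -180 and is read on the minus strand, and that in Junb begins at -49 on the plus strand. The AP-1 site, TGANTCA, was found in 0 of 7 and in 7.33% of all. No motif found overlaps another in these 7 promoters, and a match of letters shows no binding.

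Levels are CPM values, in which counts are divided by library size after TMM scaling of the 16 rats, and the depth was 19616312 to 25217030 estimated counts a rat. The labelled tissue was checked against kidney markers: the 5 proximal tubule genes summed to between 6018 and 11280 CPM in every rat. Of 4 adrenal genes only 2, Star and Th, were matched in the table, and Cyp11b1 and Cyp11b2 were not. Star stayed at or below 0.645 CPM, and Th and the neutrophil gene Elane were at 0 in all 16. Replicate 3 of the DN group stood apart in its smooth muscle markers, 699 CPM in sum against 89.5 to 278 in the other 15 rats, and in its urothelial markers, 118 CPM against 1.67 to 55.2. Bulk tissue was sequenced, so fewer cells of a type and less RNA per cell cannot be told apart. The labels number separate samples without saying more about the rats, so p-values measure the spread between these samples.

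Of the AP-1 subunits, Fos had the widest range. In the normal group its levels were 5.40, 2.08, 25.9 and 5.20 CPM in replicates 1 to 4, and in the DN group 1.33, 1.36, 2.55 and 1.62 CPM. They were 1.46, 0.835, 0.506 and 0.894 CPM at 20 mg/kg SIN and 0.634, 3.38, 1.26 and 2.13 CPM at 40 mg/kg SIN. Replicate 3 of the normal group was far above every other rat, and the second normal rat lay inside the DN range. The lowest of these values rests on 10 reads and the highest on 590.

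Fosb was close to 1 CPM in most rats. Its levels were 1.07, 1.16, 1.32 and 1.16 CPM in the normal group and 0.974, 0.961, 1.16 and 0.762 CPM in the DN group. They were 0.903, 0.557, 0.456 and 0.517 CPM at 20 mg/kg SIN and 0.792, 0.844, 0.886 and 0.726 CPM at 40 mg/kg SIN. The normal rats were above both SIN groups without overlap, and the DN rats overlapped with all 3 other groups. These levels rest on 9 to 30 reads a rat.

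Jun was the most abundant member by CPM. It measured 91.6, 119, 137 and 97.3 CPM in the normal rats, 88.4, 75.7, 74.9 and 70.5 CPM in the DN rats, 85.7, 76.6, 88.3 and 81.5 CPM at 20 mg/kg SIN and 75.9, 91.3, 71.1 and 52.1 CPM at 40 mg/kg SIN. The lowest normal rat was just above the highest rat of each other group. Junb measured 38.1, 44.9, 69.0 and 48.8 CPM in the normal rats, 40.6, 36.4, 42.0 and 43.0 CPM in the DN rats, 34.9, 41.8, 31.6 and 38.1 CPM at 20 mg/kg SIN and 28.6, 43.5, 33.3 and 27.3 CPM at 40 mg/kg SIN. For Junb, replicate 3 of the normal group was again the highest, and the normal range met that of each other group.

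Egr1 and Nr4a1 are the inducible transcription factors outside AP-1 with the widest spread. Egr1 levels were 18.9, 7.07, 85.4 and 38.4 CPM in the normal group, 5.62, 7.74, 4.79 and 7.05 CPM in the DN group, 7.74, 4.49, 3.70 and 4.47 CPM at 20 mg/kg SIN and 4.33, 8.91, 3.97 and 6.05 CPM at 40 mg/kg SIN. The normal rats differed among themselves far more than the other 12 did, and the second normal rat was level with the DN rats, as it was for Fos. Nr4a1 levels were 22.4, 16.6, 37.6 and 32.3 CPM in the normal group, 10.6, 7.18, 10.4 and 7.09 CPM in the DN group, 6.75, 10.7, 7.39 and 8.14 CPM at 20 mg/kg SIN and 4.75, 22.4, 10.4 and 10.5 CPM at 40 mg/kg SIN. All normal rats were above all DN and SIN (20 mg/kg) rats, whereas replicate 2 of the SIN (40 mg/kg) group reached the normal range.

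Atf3 and Ier2 varied less. Atf3 levels were 3.73, 3.34, 3.95 and 3.78 CPM in the normal group, 3.98, 3.29, 2.91 and 3.38 CPM in the DN group, 4.39, 4.42, 4.25 and 2.49 CPM at 20 mg/kg SIN and 2.64, 5.86, 2.43 and 2.37 CPM at 40 mg/kg SIN. Its highest and its lowest rat both belong to the SIN (40 mg/kg) group. Ier2 levels were 15.6, 16.5, 21.9 and 15.7 CPM in the normal group, 18.5, 12.6, 12.9 and 16.1 CPM in the DN group, 11.3, 16.9, 10.3 and 13.5 CPM at 20 mg/kg SIN and 12.0, 12.0, 15.5 and 11.9 CPM at 40 mg/kg SIN. All SIN (40 mg/kg) rats were below all normal rats for Ier2, by a narrow margin.

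Of the brakes, Dusp1 measured 21.7, 45.4, 54.3 and 47.4 CPM in the normal rats, 36.8, 36.5, 25.2 and 21.4 CPM in the DN rats, 22.8, 28.6, 24.1 and 26.8 CPM at 20 mg/kg SIN and 18.1, 38.3, 43.9 and 33.0 CPM at 40 mg/kg SIN. The first normal rat was low for Dusp1, below all SIN (20 mg/kg) rats and inside the DN and SIN (40 mg/kg) ranges. Zfp36 measured 37.5, 65.7, 50.9 and 50.6 CPM in the normal rats, 38.5, 48.5, 60.1 and 46.4 CPM in the DN rats, 43.7, 43.0, 37.2 and 37.5 CPM at 20 mg/kg SIN and 42.3, 49.98, 54.3 and 42.1 CPM at 40 mg/kg SIN. All groups overlapped for Zfp36.

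**Figure D1:**
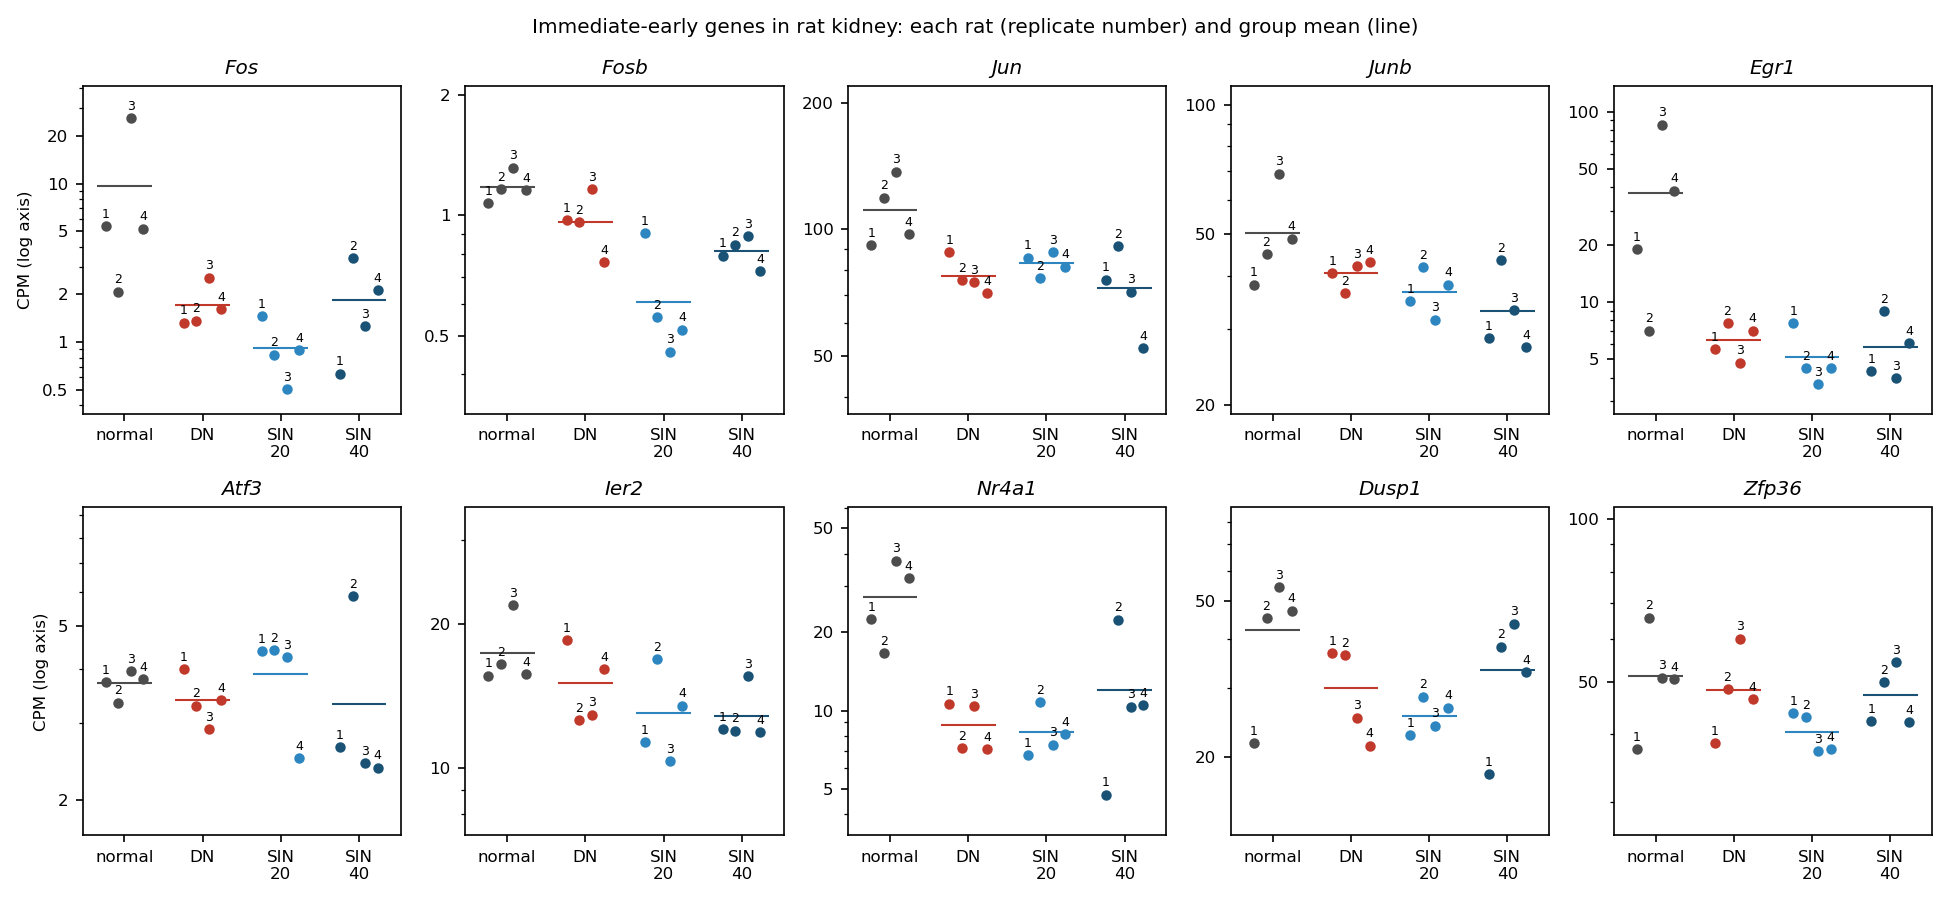
Level of each member in each rat, in CPM on a log axis, by group, with 4 points a group. The normal group spreads most for Fos, from 2.08 to 25.9 CPM, and for Egr1, from 7.07 to 85.4 CPM, while Zfp36 overlaps across all groups.

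Between the highest and the lowest of the 16 rats, Fos differed 51.1-fold, Egr1 23.1-fold and Nr4a1 7.92-fold. The other 7 members differed between 1.77-fold, for Zfp36, and 3.01-fold, for Dusp1. Within a group, the ratio of the highest to the lowest rat had a median over members of 1.78 for normal, 1.51 for DN, 1.61 at 20 mg/kg SIN and 2.00 at 40 mg/kg SIN.

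Levels of different genes were compared per kilobase of the length that the table gives, as CPM per kb (mean ± SD, n = 4). In the normal group Jun stood first at 36.0 ± 6.75, and Zfp36 at 28.2 ± 6.36, Junb at 28.2 ± 7.46 and Dusp1 at 21.8 ± 7.33 followed. Jun was more than 1 SD above Zfp36, and Zfp36, Junb and Dusp1 were each within 1 SD of the next. Egr1 at 12.0 ± 11.0, Ier2 at 11.9 ± 2.06, Nr4a1 at 11.0 ± 3.81 and Fos at 6.07 ± 6.88 formed a middle range whose neighbours did not differ beyond their spread. Atf3 at 1.34 ± 0.0935 and Fosb at 0.362 ± 0.0315 were lowest. In the DN group Zfp36, at 26.7 ± 4.92, and Jun, at 25.1 ± 2.49, stood at the top, within 1 SD of each other. Egr1 stood at 2.01 ± 0.428 and Fos at 1.08 ± 0.359 in that group, both below Ier2 at 10.2 ± 1.92. Jun stood first at 20 mg/kg SIN, at 26.9 ± 1.65, and Zfp36 at 40 mg/kg SIN, at 26.0 ± 3.31, where it was within 1 SD of Jun.

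The DN group was compared with the normal group to see what the diabetic kidney did to these genes. Nr4a1, Egr1, Fos and Jun were lower in the DN group, and no member was higher. By edgeR's quasi-likelihood test, adjusted over the 15775 genes tested, Nr4a1 fell by 1.62 on the log2 scale (SE 0.26, adjusted p = 0.00669), from a mean of 27.2 ± 9.46 to 8.82 ± 1.94 CPM (SD, n = 4). Egr1 fell by 2.57 (SE 0.62, adjusted p = 0.0238 in edgeR), Fos fell by 2.48 (SE 0.70, adjusted p = 0.0358) and Jun fell by 0.52 (SE 0.14, adjusted p = 0.0296). These were 4 of the 10 members, and 10.8% of all genes tested were lower at this threshold, or 19.5% in either direction. The groups did not overlap for 2 members, Nr4a1 and Jun, and 13.1% of all genes were lower without overlap.

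The other 6 members had negative log2 fold changes too, from -0.08 for Zfp36 to -0.49 for Dusp1, with adjusted p between 0.213 and 0.786 in edgeR. All 10 members thus had a lower fitted level in the DN group, while 49.9% of all genes did. Their median log2 fold change was -0.40, beside 0.002 over all genes tested. The members were chosen with earlier results of these data known, so these comparisons with all genes are not an independent test. Nor are the members separate observations, since replicate 3 of the normal group was the highest of its group for 9 of them. Zfp36 reached 0.06 when a rat was left out. The 95% interval reached from -1.10 to 0.12 for Dusp1, from -0.68 to 0.07 for Junb and from -0.89 to 0.33 for Fosb. It reached from -0.53 to 0.29 for Atf3, from -0.59 to 0.17 for Ier2 and from -0.47 to 0.32 for Zfp36, so decreases of the size seen in Fos or Egr1 lie outside these 6 intervals.

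**Figure D2:**
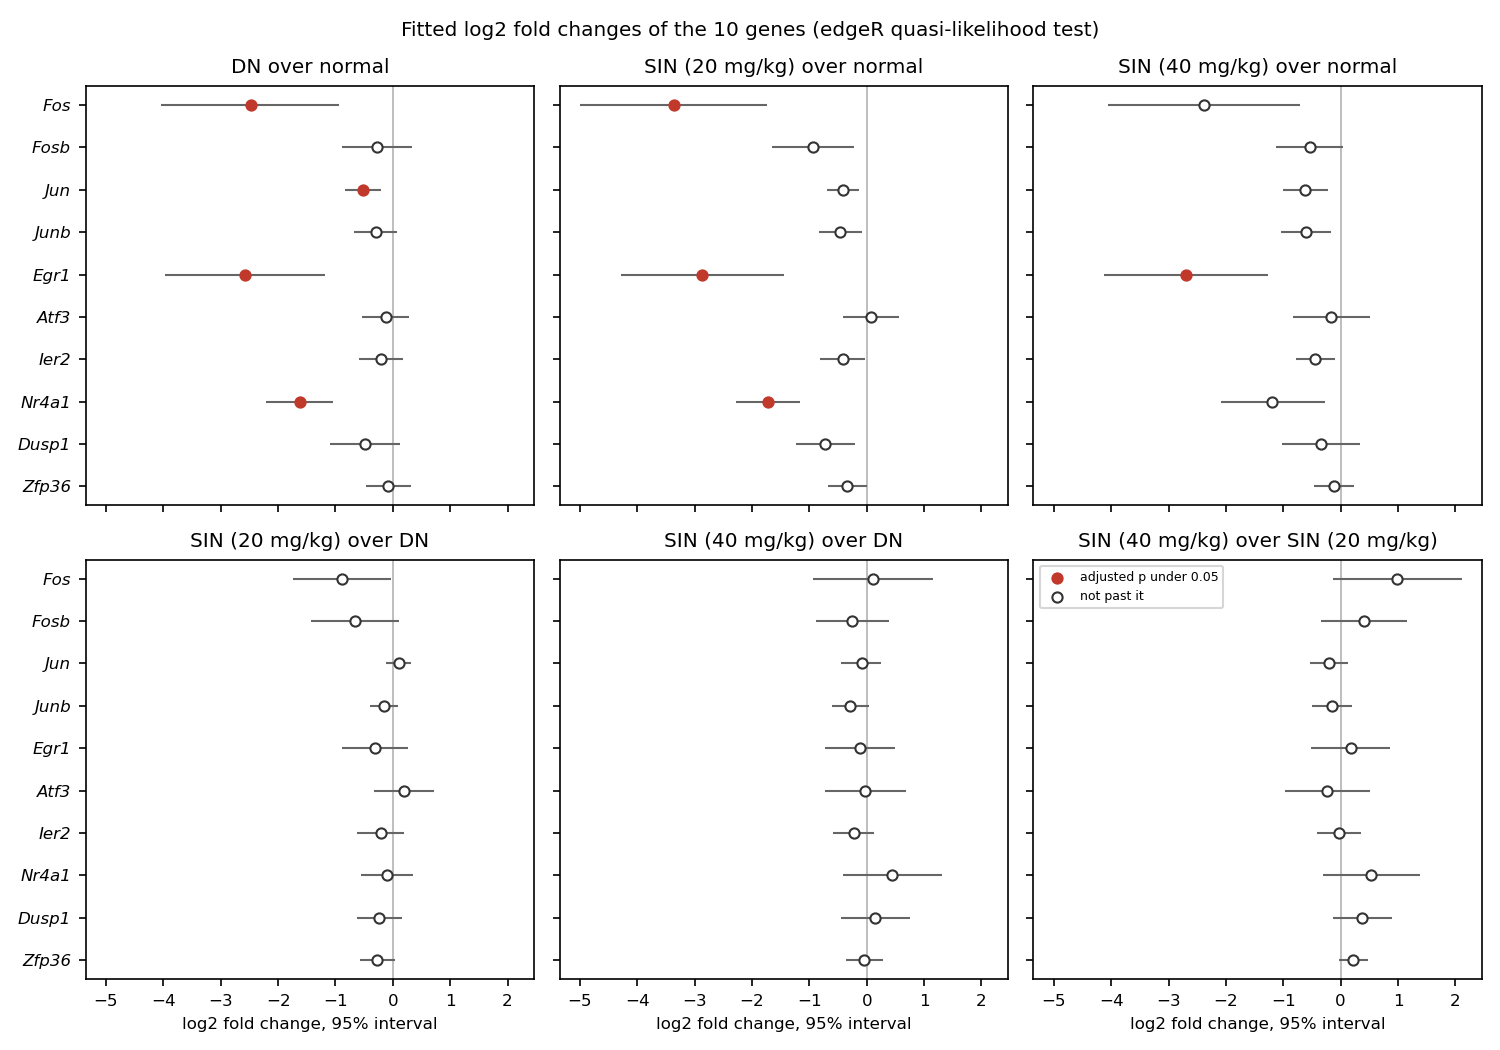
Log2 fold change of each member in each of 6 comparisons, with its 95% interval from edgeR. The points of Fos and Egr1 lie between -3.36 and -2.38 in the comparisons with the normal group, and the intervals between treated and DN rats include 0 for every member except Fos at 20 mg/kg.

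Of the 4 calls, only that of Nr4a1 stood in all 8 fits that left out 1 rat, with a log2 fold change between -1.81 and -1.42 and an adjusted p of at most 0.0268 in edgeR. Without replicate 3 of the normal group, Egr1 had -1.77 (adjusted p = 0.0571), Fos -1.29 (adjusted p = 0.0763) and Jun -0.40 (adjusted p = 0.0749) on the log2 scale. Fos kept its call in 1 of the 8 fits, that without replicate 2 of the normal group, Jun in 3 and Egr1 in 4, of which that without replicate 3 of the DN group lay at the threshold (adjusted p = 0.05 after rounding). The loss was not particular to 1 rat: Fos passed 0.05 again without replicate 1 or 4 of the normal group or any 1 of the DN rats, Egr1 without replicate 4 of the normal group or replicate 1 or 2 of the DN group, and Jun without replicate 4 of the normal group or replicate 2, 3 or 4 of the DN group, with adjusted p from 0.0507 to 0.0888 in edgeR. Over all genes, the number called ran from 769 to 3781 in these fits, against 3074 with all 8 rats. Without replicate 3 of the DN group, the rat high in smooth muscle and urothelial markers, 2 members were called.

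**Figure D3:**
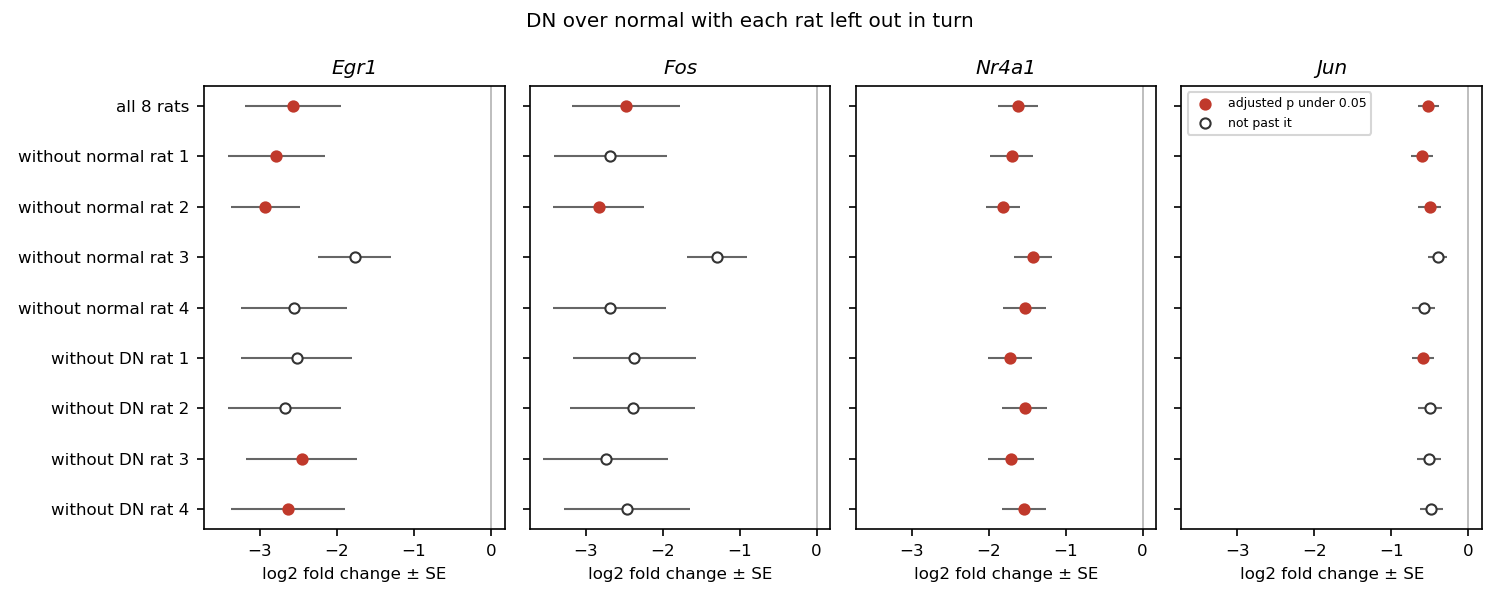
Log2 fold change of the DN over the normal group for Egr1, Fos, Nr4a1 and Jun, with all 8 rats and in the 8 fits without 1 rat. Bars are the SE and filled points have an adjusted p under 0.05 in edgeR. The values of Fos spread from -2.83 to -1.29, the latter without replicate 3 of the normal group, while those of Nr4a1 stay between -1.81 and -1.42.

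SIN was compared with DN to see whether treatment moved these genes. At 20 mg/kg, 0 of the 10 members passed an adjusted p of 0.05 in edgeR, as did 0 of the 15724 genes tested (background 0%). Before adjustment 1 member, Fos, was lower at p under 0.05 in edgeR, beside 6.24% of all genes, with a log2 fold change of -0.89 (SE 0.38, 95% interval -1.74 to -0.04, adjusted p = 0.314). The DN mean of Fos was 1.72 ± 0.571 CPM and the mean at 20 mg/kg was 0.924 ± 0.397 CPM (SD, n = 4), and the groups overlapped. By DESeq2 and by edgeR's exact test 0 members were called too, although those tools called 220 and 89 genes over the whole table. Fosb stood at -0.66 (interval -1.42 to 0.10), Egr1 at -0.31 (interval -0.89 to 0.27) and Nr4a1 at -0.10 (interval -0.56 to 0.36).

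At 40 mg/kg, 0 of 10 members were called against DN by edgeR, as were 0 of the 15530 genes (background 0%), and 0 members had an unadjusted p under 0.05, beside 17.1% of all genes in either direction. DESeq2 and the exact test called 0 members and 424 and 161 genes. Nr4a1 had a log2 fold change of 0.44 (interval -0.42 to 1.31), Fos of 0.11 (interval -0.94 to 1.16) and Egr1 of -0.11 (interval -0.73 to 0.50). Replicate 2 of the SIN (40 mg/kg) group decided the sign for Nr4a1 and Fos: without it they stood at -0.06 and -0.37. Without replicate 1 of the DN group Fos stood at -0.02. For Egr1, the upper bounds of 0.27 at 20 mg/kg and 0.50 at 40 mg/kg against DN lie below 1.18, the smallest gap between normal and DN that its own interval allows. At 40 mg/kg this is not so for Fos and Nr4a1, whose upper bounds are 1.16 and 1.31. Their intervals for DN against normal end at -0.93 and -1.04. Nor is it so for Jun at either dose, with upper bounds of 0.31 and 0.25 and a DN interval that ends at -0.21. At 20 mg/kg the upper bounds of Fos (-0.04) and Nr4a1 (0.36) lie below their gaps.

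Between the doses, 0 members were called, beside 0.00639% of all genes, that is 1 of 15657. No member had an unadjusted p under 0.05, and 4.98% of all genes did. DESeq2 and the exact test called 17 and 6 genes and 0 members. Fos stood 0.99 higher on the log2 scale at 40 than at 20 mg/kg, with a 95% interval of -0.14 to 2.11, and Zfp36 0.22 higher, with an interval of -0.03 to 0.47. Neither passed the test (adjusted p = 0.961 for both in edgeR).

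The SIN groups were also set against the normal group. These comparisons share the 4 normal rats with each other and with that of DN, so a rat that stands apart in the normal group moves all of them. At 20 mg/kg, 3 members were lower by edgeR, beside 3.58% of all 15877 genes: Nr4a1 at a log2 fold change of -1.72 (SE 0.25, adjusted p = 0.00435), Fos at -3.36 (SE 0.74, adjusted p = 0.0249) and Egr1 at -2.87 (SE 0.64, adjusted p = 0.0266). Fos, Fosb, Jun and Nr4a1 did not overlap between the groups, which is 4 members beside 7.15% of all genes. Before adjustment 9 members were lower at p under 0.05, beside 10.6% of all genes. Nr4a1 stayed called without any 1 of the 8 rats. Fos lost its call without replicate 2, 3 or 4 of the SIN (20 mg/kg) group, where its adjusted p was up to 0.0793 in edgeR, and its log2 fold change was -2.18 without replicate 3 of the normal group. Egr1 lost its call without the same 3 SIN rats or replicate 4 of the normal group, with an adjusted p of up to 0.0844.

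At 40 mg/kg, Egr1 alone was lower than in the normal group by edgeR, at -2.69 (SE 0.64, adjusted p = 0.0372), beside 3.69% of all 15735 genes. Fos stood at -2.38 (adjusted p = 0.0942), Jun at -0.62 (adjusted p = 0.0711) and Nr4a1 at -1.19 (adjusted p = 0.117). Without replicate 2 of the SIN (40 mg/kg) group, the rat with 22.4 CPM of Nr4a1, that gene stood at -1.68 (adjusted p = 0.0381 in edgeR). Egr1 kept its call in 2 of the 8 fits without 1 rat, those without replicate 1 or 2 of the normal group, and its adjusted p was otherwise between 0.0686 and 0.11. Fosb, Jun and Ier2 did not overlap, 3 members beside 7.10% of all genes. Before adjustment 6 members were lower, beside 11.5% of all genes. That Nr4a1 passed the test at 20 and not at 40 mg/kg does not show a difference between doses: the doses differed by 0.53 on the log2 scale with an interval of -0.31 to 1.38.

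Single rats carried many members at the same time. Replicate 3 of the normal group was the highest of all 16 rats for 8 of the 10 members, the exceptions being Zfp36, highest in replicate 2 of the normal group, and Atf3, highest in replicate 2 of the SIN (40 mg/kg) group. It was the highest of its group for 9 of 10 members, for 11 of 34 other immediate-early genes, which is 32.4%, and for 27.7% of all 16404 genes kept. Its depth of 21576605 estimated counts was inside the range of its group, and so was its sum of smooth muscle markers, 120 CPM. It had the highest sum of heat shock genes of all 16 rats, 1477 CPM, and the lowest sum of proximal tubule markers of its group, 7036 CPM against 8037 to 10580 in the other 3 normal rats. The part of these in the members' levels was not tested. In the SIN (40 mg/kg) group replicate 2 was the highest for 6 members and for 18.5% of all genes. Replicate 3 of the SIN (20 mg/kg) group was the lowest of all 16 rats for 5 members, Fos, Fosb, Egr1, Ier2 and Zfp36.

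**Figure D4:**
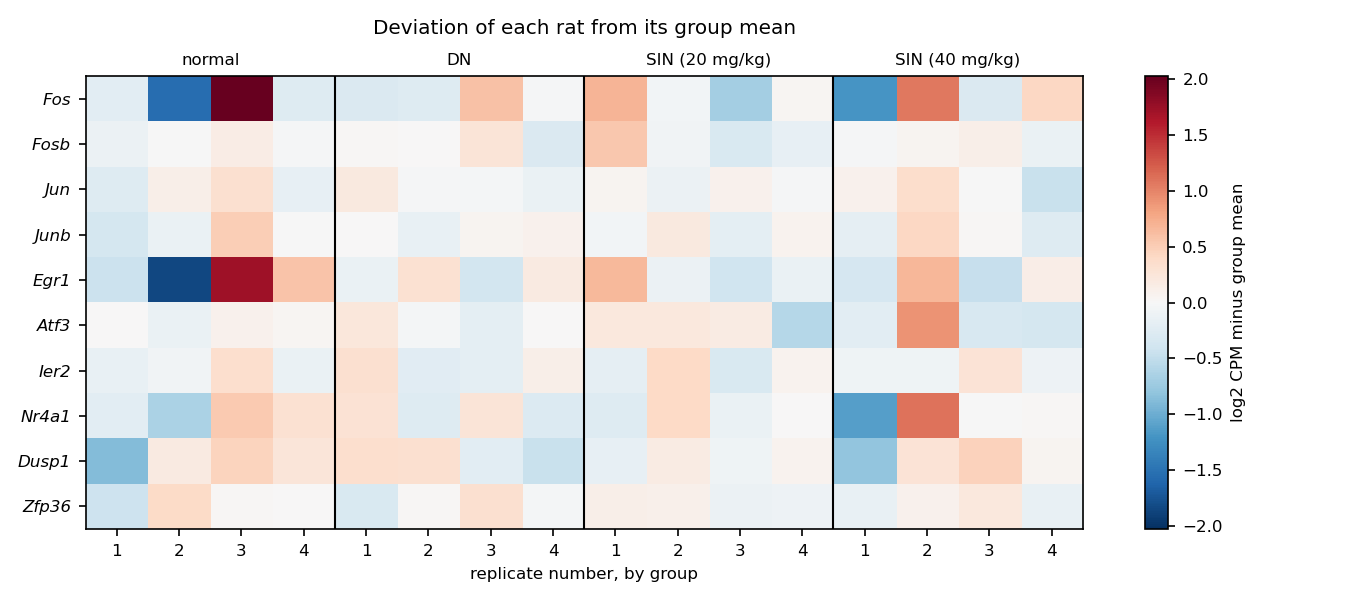
Deviation of each rat from its group's mean log2 CPM, for each member. Replicate 3 of the normal group and replicate 2 of the SIN (40 mg/kg) group deviate upwards for most members, 9 and 6 of which are highest in that rat within its group.

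How the members varied together from rat to rat was described by correlations of log2 CPM over the 16 rats after each group's mean was subtracted. The median Pearson r over 45 pairs was 0.30, and 40 of the pairs were positive. For comparison, the median r of a member with all 16403 other genes was between -0.01 and 0.01, and its median with the other members was between 0.09, for Zfp36, and 0.56, for Junb. No pair passed an adjusted p of 0.05 in a permutation test within groups with 100000 resamples, and 8 pairs had an unadjusted p under 0.05.

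Fos and Egr1 were the closest pair, with r = 0.83 (permutation p = 0.00786, adjusted 0.224) and Spearman's rho = 0.69 (permutation p = 0.0157, adjusted 0.292). Without the 2 rats farthest from the median of Fos r was 0.55. Fos and Nr4a1 followed with r = 0.71 (permutation p = 0.0105, adjusted 0.224) and rho = 0.53 (permutation p = 0.0791, adjusted 0.412), and r was 0.67 without 2 rats. The rats fall into 4 groups, and the spread of Fos and Egr1 was widest in the normal group. Without replicate 3 of that group the median r over pairs was 0.23.

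**Figure D5:**
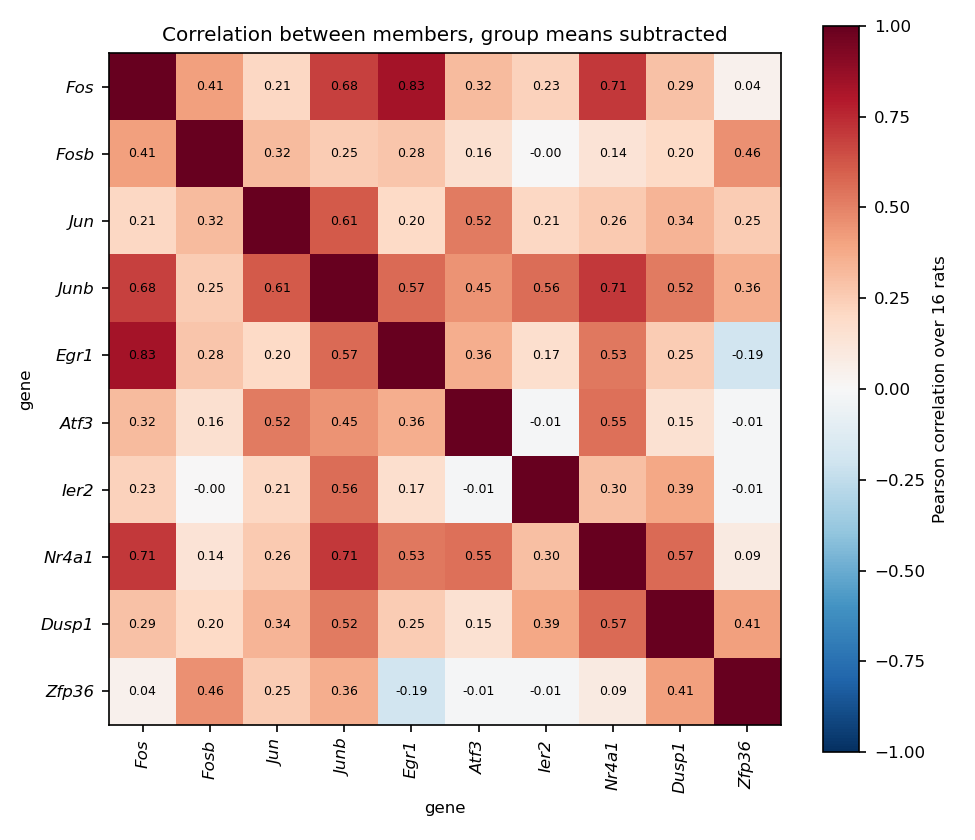
Pearson correlation between members over 16 rats after subtracting group means, as a colour scale from -1 to 1 with r printed in each cell. Fos with Egr1 (0.83), Fos with Nr4a1 (0.71) and Junb with Nr4a1 (0.71) are the darkest cells, and Zfp36 with Egr1 is the lowest at -0.19.

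Among 16394 other genes, those whose level over the 16 rats was most like the mean of the 10 scaled members were Nuak1, an AMPK-related kinase, with r = 0.86, the phosphatase gene Cdc14b with 0.84, LOC103689922 with 0.83, RGD1560108 with 0.83 and Klhl8 with 0.82. Group differences enter these values. With group means subtracted they were 0.71, 0.46, 0.61, 0.66 and 0.40 in the same order.

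Other immediate-early genes, a list of 37 of which 36 are in the table, did not move in 1 direction. Between DN and normal 32 were tested, of which 1 was higher and 4 were lower by edgeR at an adjusted p under 0.05, beside 8.74% of all genes higher and 10.8% lower, with a median log2 fold change of -0.09 beside 0.002 over all genes. The lower ones were Trib1, a pseudokinase, at -1.16 (adjusted p = 0.0165), Tiparp at -0.83 (adjusted p = 0.0164), Klf6, a zinc finger factor, at -0.58 (adjusted p = 0.0395), and Zfp36l2, a relative of Zfp36, at -0.54 (adjusted p = 0.0262). Fosl1, a Fos family member, was the higher one at 1.71 (adjusted p = 0.0275), from a mean of 0.216 to 0.716 CPM. When 1 rat was left out, Trib1 stayed called in 7 of 8 fits, Tiparp in 6, Zfp36l2 and Fosl1 in 4 and Klf6 in 2, and their largest adjusted p was 0.0507, 0.0558, 0.0783, 0.0859 and 0.0934. All but Klf6 reached it without replicate 4 of the normal group and Klf6 without replicate 1 of the DN group, the rat that was the highest of its group for 21 of 34 of these genes.

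Sik1, a salt-inducible kinase whose gene is a CREB target, went the other way from the members in SIN-treated rats. It measured 18.1, 20.5, 19.1 and 24.8 CPM in the normal group, 36.1, 20.0, 28.5 and 18.8 CPM in the DN group, 39.6, 52.4, 47.1 and 64.2 CPM at 20 mg/kg SIN and 35.6, 71.3, 52.9 and 39.6 CPM at 40 mg/kg SIN. All treated rats were above all normal rats. By edgeR Sik1 was higher than normal by 1.30 at 20 mg/kg (adjusted p = 0.00161) and by 1.27 at 40 mg/kg (adjusted p = 0.00696) on the log2 scale, in all 8 fits without 1 rat at each dose. Against DN it stood at 0.97 (adjusted p = 0.27) and 0.95 (adjusted p = 0.196), and edgeR's quasi-likelihood test called 0 of the other genes between SIN and DN at either dose and between the doses, with 3, 7 and 5 at an unadjusted p under 0.05. At 20 mg/kg against DN, Sik1 was called by DESeq2 and by edgeR's exact test. At 40 mg/kg DESeq2 called Sik1 higher and Dusp5 and Socs3 lower, and the exact test called Socs3. Between the doses both called 0. Against normal, 2 of 32 other genes were higher and 1 lower at 20 mg/kg, beside 2.77% and 3.58% of all genes, with Myc at 0.98 (adjusted p = 0.0232, up to 0.0622 without replicate 4 of the SIN (20 mg/kg) group) and Trib1 at -1.27 (adjusted p = 0.0049). At 40 mg/kg 1 was higher and 3 lower, beside 2.28% and 3.69% of all genes, with Trib1 at -1.36 (adjusted p = 0.0111), Ier5 at -0.63 (adjusted p = 0.0457) and Tiparp at -0.53 (adjusted p = 0.0451). Without 1 rat the adjusted p reached 0.117 for Ier5, without replicate 1 of the normal group, and 0.12 for Tiparp, without replicate 3 of the SIN (40 mg/kg) group, and each kept its call in 1 of 8 fits.

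Of the upstream factors, 17 were tested between DN and normal, of which 3 were higher and 2 lower by edgeR, where 8.74% and 10.8% of all genes were. Creb1, which encodes CREB, was lower, at -0.79 (adjusted p = 0.0172), at 15.8, 13.4, 21.4 and 16.2 CPM in the normal rats and 8.36, 9.71, 11.6 and 8.95 CPM in the DN rats, without overlap. Elk4, a ternary complex partner of SRF, was lower, at -0.38 (adjusted p = 0.0355). Mapk3, the MAP kinase ERK1, was higher by 0.45 (adjusted p = 0.0209), Map2k2, a kinase that activates it, by 0.37 (adjusted p = 0.0494) and Srf itself by 0.31 (adjusted p = 0.0492). Creb1 kept its call in 7 of 8 fits without 1 rat, Mapk3 in 4, Elk4 and Map2k2 in 2 and Srf in 1, and the largest adjusted p of each, between 0.0516 and 0.139, came without replicate 4 of the normal group. In the 5 other comparisons edgeR's quasi-likelihood test called 0 of the 17, with 5 at an unadjusted p under 0.05 against DN at each dose, 1 between the doses, and 1 and 2 against normal at 20 and 40 mg/kg. Crem, a relative of Creb1, was called by DESeq2 against DN at both doses and against normal at 40 mg/kg, and by edgeR's exact test against DN at 40 mg/kg, each time higher.

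The AP-1 partners outside the members had 1 higher and 1 lower call of 11 tested between DN and normal: Fosl1, given above, and Atf2, at -0.35 (adjusted p = 0.0471 in edgeR, 0.138 without replicate 4 of the normal group). Genes of the later response, of which 14 were tested, had 5 higher and 0 lower in DN by edgeR's quasi-likelihood test, beside 8.74% and 10.8% of all genes. None was lower at an unadjusted p under 0.05. The exact test called the same 5 higher and 0 lower. DESeq2 called 5 higher and 0 lower too, but Timp1 was among them and Hmox1 was not. Between 2 and 5 were higher when 1 rat was left out. Plk2, a polo-like kinase, was higher by 1.27 (adjusted p = 0.00952), Gdf15, a secreted stress cytokine, by 1.01 (adjusted p = 0.011), Cdkn1a, the cell cycle inhibitor p21, by 0.88 (adjusted p = 0.0377) and Nab2, a corepressor of Egr1, by 0.43 (adjusted p = 0.0343). Plk2 and Gdf15 kept their calls in all 8 fits without 1 rat, Cdkn1a in 2 and Nab2 in 1, the last 2 reaching 0.103 and 0.0998 without replicate 4 of the normal group. Hmox1, haem oxygenase, measured 707 CPM in replicate 1 of the DN group and 5.57 to 11.3 CPM in the other 3 DN rats, against 2.56 to 4.84 CPM in the normal group. It was higher by 5.64 (adjusted p = 0.0395), and by 1.19 (adjusted p = 0.0385) without that rat, and kept its call in 4 of 8 such fits, with an adjusted p of 0.107 in edgeR without replicate 3 of the normal group.

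Markers of several cell types and genes of other responses also differed between the normal and the DN rats. Loop and distal tubule markers summed to 3991 to 4867 CPM in the normal rats and to 2432 to 3612 CPM in the other 12. Most of this sum is Umod, at a mean of 3286 CPM in the normal and 1924 CPM in the DN rats. Of the 4 markers only Umod passed the test between DN and normal, at -0.77 (adjusted p = 0.0154 in edgeR, 0.0534 without replicate 4 of the normal group). Calb1 went the other way, with means of 150.7 CPM in the normal rats, 183.0 CPM in the DN rats and 296.5 CPM at 40 mg/kg SIN. At that dose Calb1 was higher than normal by 0.97 on the log2 scale (adjusted p = 0.0217 in edgeR). Adipocyte markers summed to 59.4 to 66.7 CPM in the normal and to 83.7 to 126 CPM in the DN rats, without overlap. Most of this sum is 1 gene, Cidec, a lipid droplet protein, at 52.4 to 57.6 CPM in the normal and 72.1 to 118 CPM in the DN rats. Cidec was higher by 0.75 (adjusted p = 0.00954 in edgeR), and no other of the 3 adipocyte markers tested had an unadjusted p under 0.05. Smooth muscle markers summed to 89.5 to 199 CPM in the normal and to 190 to 699 CPM in the DN rats, with Tagln, an actin-binding protein, higher by 1.81 (adjusted p = 0.0064). Both Cidec and Tagln were called in all 8 fits without 1 rat. Of the fibroblast markers Col1a1, a collagen chain, was higher by 1.08 (adjusted p = 0.0262) and Pdgfra lower, at -0.41 (adjusted p = 0.0285), and of the macrophage markers Ptprc, the leukocyte antigen CD45, was lower, at -0.81 (adjusted p = 0.0328 in edgeR). Col1a1 and Pdgfra each kept their calls in 4 of the 8 fits and Ptprc in 2. The 5 macrophage markers did not move in 1 direction. Their median log2 fold change was 0.02, with 1 higher and 1 lower at an unadjusted p under 0.05 in edgeR. Up to 3 of them were called higher when 1 rat was left out. Their sums overlapped, at 86.65 to 153.9 CPM in the normal and 109.9 to 128.0 CPM in the DN rats. Of all 42 cell type markers tested between DN and normal, 3 were higher and 3 lower in DN, beside 8.74% and 10.8% of all genes. Against normal, 2 markers were higher and 2 lower at 20 mg/kg SIN, beside 2.77% and 3.58% of all genes. At 40 mg/kg SIN 3 were higher and 3 lower, beside 2.28% and 3.69% of all genes.

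Heat shock genes summed to 1272 to 1477 CPM in the normal, 910 to 1140 CPM in the DN, 1057 to 1450 CPM in the SIN (20 mg/kg) and 1243 to 1306 CPM in the SIN (40 mg/kg) rats, so that the normal group was apart from DN and overlapped with both SIN groups. Most of this sum is Hspa8, at a mean of 996.8 CPM in the normal and 716.4 CPM in the DN rats. Of 7 heat shock genes tested between DN and normal 2 were lower by edgeR, beside 10.8% of all genes: Hsph1 at -0.48 (adjusted p = 0.0134) and Hspa8 at -0.47 (adjusted p = 0.0281, 0.0818 without replicate 4 of the normal group). At an unadjusted p under 0.05 in edgeR 4 were lower and 1 higher, and DESeq2 called Hspb1 higher. Of 8 glucocorticoid-responsive genes 3 were lower, Klf9 at -1.09 (adjusted p = 0.00421), Tsc22d3 (adjusted p = 0.0447) and Fkbp5 (adjusted p = 0.0452 in edgeR), and 1 was higher, Cdkn1a, beside 10.8% and 8.74% of all genes. Klf9 kept its call in all 8 fits without 1 rat, Tsc22d3 in 1 and Fkbp5 in 0, and between 1 and 3 of the 8 genes were lower in those fits. Of 9 clock genes tested 5 were higher and 3 lower, beside 8.74% and 10.8% of all genes. Between 3 and 6 were higher and 3 lower when 1 rat was left out. Dbp rose by 1.78 (adjusted p = 0.00524 in edgeR) and Npas2 fell by 1.58 (adjusted p = 0.00387) on the log2 scale. Against DN, edgeR's quasi-likelihood test called 0 of 10 clock genes at either SIN dose. At an unadjusted p under 0.05, 5 were higher and 3 lower at 20 mg/kg, beside 2427 of all 15724 genes. At 40 mg/kg 6 were higher and 2 lower, beside 17.1% of all genes in either direction. The part of these markers and responses in the lower levels of Nr4a1, Egr1, Fos and Jun was not tested.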

How the data were processed

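Kidney mRNA of 16 rats, 4 per group, was sequenced after oligo(dT) enrichment. The authors used SeqPrep and Sickle to trim the reads and TopHat to align them to Rnor_6.0. The submitters' processing notes also name Bowtie, RSEM and edgeR. The authors deposited estimated counts for 35849 genes without normalization, and 74.3% of the nonzero values were whole. The values were rounded here. Depth was 19616312 to 25217030 estimated counts a rat. The columns of 4 libraries that no sample record names were not used. The 10 members and the gene lists were chosen with earlier results of these data known.

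Counts were tested with edgeR 4.0.16 (quasi-likelihood, TMM, filterByExpr), two-sided, in a separate fit of 8 rats for each of 6 comparisons, with Benjamini-Hochberg adjustment over all genes tested, and a gene was called at an adjusted p under 0.05. Intervals are at 95% and use the fit's own degrees of freedom. Log2 CPM added a prior count of 2. All members are named in each comparison. Other genes are those called in their list or, failing that, the largest unadjusted rise and fall, and not every such gene is given. On simulated data for DN against normal, with 200 genes changed by a log2 fold change of 2, the test called 93.1% of the 189 that were tested and 11 unchanged genes of 15737 tested. Smaller changes, such as those of most members, were not simulated, so the share called at those sizes is not known. Same-numbered rats of different groups had deviations correlated between -0.25 and 0.28. Such values cannot show whether rats of the same number were handled together, and the main fits did not pair them. Each alternative changed 1 choice: the tool (DESeq2 1.42.0 or edgeR's exact test), the normalization (RLE), the filter (none, or a minimum of 10 counts in each rat compared), the rats fitted (all 16 together, or 1 fewer), a block for the replicate number, and a prior count of 0.25 for log2 CPM. Symbols not matched in the table, Mcl1 among them, were not analysed here. R 4.3.3 and Python 3.11.15 were used.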

Additional observations from a re-analysis of the deposited data

Results flagged for a closer look

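Of 40 sets of 4 rats (10 members in 4 groups), 4 held a rat whose gap to the nearest other rat on the log2 CPM scale, divided by the range of the group, was above Dixon's 95% critical value for 4 values, and chance gives such a gap in about 1 of 20 sets. Atf3 was 2.49 CPM in replicate 4 of the SIN (20 mg/kg) group, below the 4.25 to 4.42 CPM of the other 3 rats. Atf3 was 5.86 CPM in replicate 2 of the SIN (40 mg/kg) group, above 2.37 to 2.64 CPM in the other 3. Ier2 was 21.9 CPM in replicate 3 of the normal group, above 15.6 to 16.5 CPM, and 15.5 CPM in replicate 3 of the SIN (40 mg/kg) group, above 11.9 to 12.0 CPM. On the CPM scale these 4 were above the critical value too, and so was Fos in replicate 3 of the normal group, at 25.9 CPM, whose gap was 0.861 of the range in CPM and 0.626 of it in log2 CPM. Egr1 in the same rat, at 85.4 CPM, stayed below it on both scales, with 0.6 and 0.321.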

How the results depend on the processing

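RLE normalization, no filter and at least 10 counts in every compared rat left the number of members called in each of the 6 comparisons within 1.5 times that reported. DN against normal had 4 members called, 2 with the replicate block (Fos, adjusted p = 0.0475, and Nr4a1, adjusted p = 0.0239, in edgeR) and between 1 and 4 when 1 rat was left out. SIN (20 mg/kg) against normal had 3, and 5 by DESeq2, 5 by edgeR's exact test, 1 with the block and between 1 and 4 when 1 rat was left out. SIN (40 mg/kg) against normal had 1, and 3 by DESeq2, 4 by the exact test, 4 with all 16 rats in one fit and between 0 and 1 when 1 rat was left out. The pairing of rats by number rests on the number alone. Over the whole table, DN against normal had 3074 genes called, 4160 by DESeq2 and 1325 with the block. At 20 mg/kg SIN the counts against normal were 1009, 1726 by DESeq2, 1438 by the exact test and 758 with the block. At 40 mg/kg SIN they were 940, 1761 by DESeq2, 1512 by the exact test and 1032 from a joint fit of 16 rats.

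Signs turned only among members that missed the threshold. Fos in SIN (40 mg/kg) against DN was 0.11 on the log2 scale and -0.07 with the block. When 1 rat was left out, that comparison ran from -0.37 to 0.39 for Fos, -0.23 to 0.03 for Jun, -0.41 to 0.03 for Egr1, -0.47 to 0.10 for Atf3, -0.06 to 0.71 for Nr4a1, -0.01 to 0.36 for Dusp1 and -0.15 to 0.09 for Zfp36. Zfp36 ran from -0.20 to 0.06 in DN against normal and from -0.24 to 0.02 in SIN (40 mg/kg) against normal. Between the doses, Egr1 ran from -0.10 to 0.46 and Ier2 from -0.13 to 0.13. The median correlation of 0.30 was 0.52 without subtracting group means and between 0.23 and 0.40 when 1 rat was left out. The cause of these shifts was not tested. Fos and Fosb rest on as few as 10 and 9 reads a rat, which limits their precision.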
